A study of Homo sapiens with 12 samples.

Results

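The set consisted of the expressed LINC genes, the long intergenic noncoding RNAs that carry a systematic name made of the letters LINC and a number. Such a name was carried by 1876 of the 58302 genes measured, and 770 of these were above 0 in at least 1 library. The 103 with a mean of at least 20 over the 12 libraries were kept. Values are reads scaled to a library total of 20000000. All 103 also passed the filter for testing, as did 16027 genes in all. The members were thus chosen by their mean scaled reads, and the levels are given below as a description. The level limit fell in a dense part of the range. LINC00607, LINC00920 and LINC01311, just below it, had means of 19.2, 19.6 and 19.7, while LINC02361, LINC00513 and LINC01320, just above it, had means of 20.1, 20.1 and 20.5.

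RNA was sequenced from TPC1, an established papillary thyroid carcinoma cell line of wt genotype, and from the lines D11, WB1 and TD5 made from it, each Dicer1 (+/-), with 3 libraries per line and no treatment. To obtain the lines, a plasmid carrying Cas9 and a guide to exon 11 of Dicer1 was introduced transiently into TPC1. Each line is 1 clone, so the genotype cannot be told apart from other features of that clone. The labels do not say whether the 3 libraries of a line came from separate cultures. The methods of the study state in general that experiments were repeated independently, without naming the sequencing libraries, so p-values measure the spread between these libraries, which may be in part technical.

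Long noncoding RNAs are transcribed by RNA polymerase II and are mostly spliced and polyadenylated, but they contain no long open reading frame. Some act in the nucleus on the transcription of genes next to them, others bind proteins or microRNAs, and a few transcripts with a noncoding name have turned out to encode small proteins. Dicer1 cuts microRNA precursors into mature microRNAs, which guide the silencing complex to RNAs with matching sites, and some LINC genes are themselves the primary transcripts from which microRNA hairpins are cut.

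DICER1, the targeted gene, lay between 1101 and 1360 scaled reads in TPC1, 977 and 1093 in D11, 627 and 809 in TD5, and 815 and 939 in WB1, so every library of a clone lay below every TPC1 library. Of the thyroid markers, PAX8 lay between 7248 and 9879 scaled reads in all libraries, but NKX2-1 and TSHR were listed at 0. FOXE1, a thyroid transcription factor, lay between 280 and 316 in TPC1 and was called lower in all 3 clones, where it lay between 93 and 171. Of the epithelial markers KRT8 and KRT18 were high and EPCAM did not exceed 5. The summed blood and endothelial markers did not exceed 9 in any library. Of the fibroblast markers DCN was listed at 0, PDGFRB lay between 37 and 192, and LUM lay between 63 and 78 in TPC1, 138 and 212 in WB1, and 0 and 2 in D11 and TD5. The estimated depth was 12699000 to 21021000 reads per library, and a floor of 3 reads corresponded to 2.85 to 4.72 scaled reads. It covers counting error only.

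The LINC genes were a small part of the RNA and a few of them held much of it. Their sum was 21180 ± 344 scaled reads in TPC1 (SD, n = 3, as for the clones). D11 had 21810 ± 527, WB1 22040 ± 453 and TD5 20650 ± 267, and the share was 0.102% to 0.113% of a library. The order of the lines rested on the scaling, since under median-of-ratios scaling the means were 21660, 21410, 21560 and 21010 and TPC1 was the highest. Without the 3 genes of highest level the sums were 13360 ± 221, 14860 ± 462, 14620 ± 448 and 13670 ± 225. The median of the 103 means was 88.3, against 458.9 for all genes tested. A mean of at least 100 was found for 44 genes, one of 50 to 100 for 27 and a lower one for 32, and 87 had a mean of at least 20 in each of the 4 lines. The others passed the level limit only through lines where they are higher. This holds for called genes among them, such as LINC01234 and LINC01320.

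LINC00958, a noncoding RNA studied in several carcinomas, had the highest level. It had 3875, 3795 and 3833 scaled reads in TPC1, 3331, 3318 and 3355 in D11 and 3488, 3466 and 3264 in WB1, while TD5 had 2993, 2945 and 2995. All 9 clone libraries lay below all 3 TPC1 libraries, but the line means differed by 1.29 times at most, which is under the 1.5-fold needed for a call. LINC00963 followed with a mean of 2422. It had 2333, 2500 and 2260 scaled reads in TPC1, 2032, 2174 and 2231 in D11 and 2666, 2528 and 2521 in WB1, while TD5 had 2558, 2621 and 2638, so D11 lay below TPC1 and WB1 and TD5 lay above it, with line means that differed by at most 1.21 times. LINC00094 had a mean of 1478, with 1540 to 1671 in TPC1 and 1311 to 1514 in the clones. It is now named BRD3OS and annotated as protein coding, and it shares 1283 exonic bases with BRD3 on the opposite strand. The next of the 10 highest were LINC01226 (742), LINC00973 (639), LINC01116 (612), LINC00649 (515), LINC00511 (507), LINC01111 (479) and LINC01578 (411). The line means of LINC01116, LINC00649 and LINC01111 differed by at most 1.16, 1.11 and 1.26 times. Per kilobase of the longest transcript the order was different. LINC00958 still led with 1683 scaled reads per kilobase, but the short LINC00973 followed with 664, and the long LINC00963 had 253. The median over the set was 32.1 per kilobase.

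**Figure D1:**
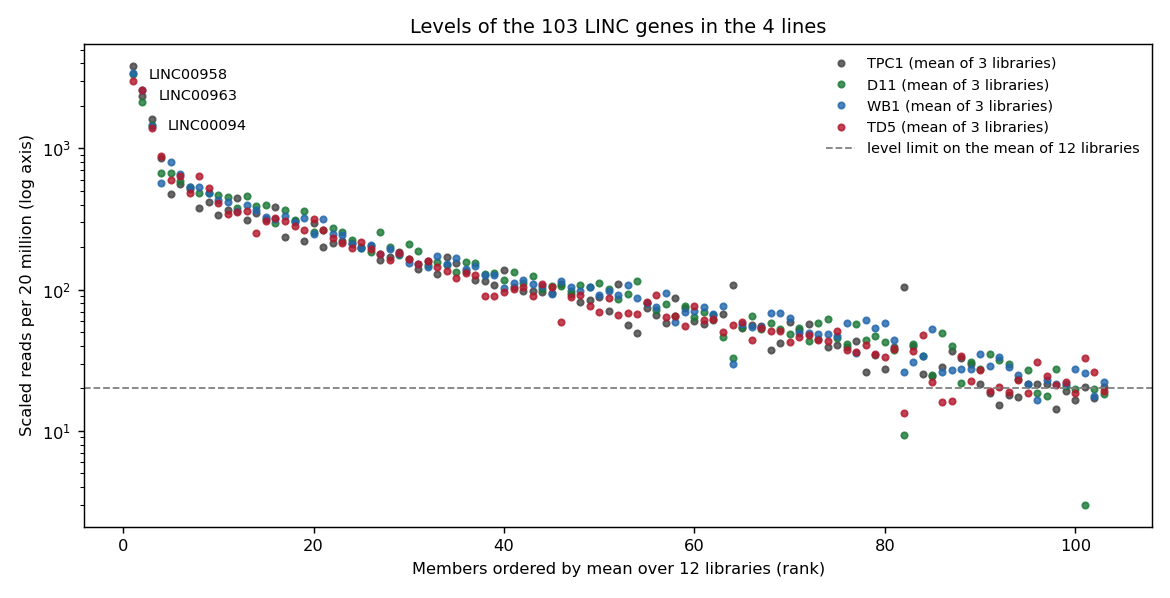
Mean scaled reads of each of the 103 LINC genes in the 4 lines (log axis), ordered by their mean over the 12 libraries, with the level limit of 20 as a dashed line. LINC00958, LINC00963 and LINC00094 stand above the rest, and the isolated low points near the right end are LINC01234, at 9.33 in D11, and LINC01320, at 3.0 in D11.

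In the current GENCODE annotation, release 44, 93 of the 103 were long noncoding RNAs, 5 were protein coding and 5 were transcribed pseudogenes, and 17 had a newer symbol. Their median GC content was 45.4%, against 48.1% for all genes tested, and the longest transcript had a median length of 2918 bases, against 3350. Exons of 36 overlapped another gene of the table on the opposite strand, and exons of 21 did so on the same strand. The library kit keeps the strand, but the strand setting of the counting is not given in the sources used here, so reads of such pairs may not be separable.

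The main question was which of these genes differed between TPC1 and the clones. Calls required a change of at least 1.5-fold and an adjusted p under 0.05 (limma, Benjamini-Hochberg over all 16027 genes tested). Fold changes are on the scale of log2(value per 1000000 + 1), which understates changes of low genes. The 3 comparisons share the TPC1 libraries. Across all 4 lines, 47 of the 103 (45.6%) differed in the F test at an adjusted p under 0.05, against 44.6% of all genes. Most differences were small, since for 64 genes the highest line mean was under 1.5 times the lowest and for 10 it was at least 2 times. At least 1 clone differed from TPC1 in 20 genes (19.4%), and 80 were called in none of the 6 comparisons between lines. For these counts by line mean and by call, the shares of all genes were not computed. The counts describe the set only.

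In D11, 4 LINC genes were called higher and 3 lower than in TPC1, where 2.89% of all genes were called higher and 1.95% lower, and these were 3.88% and 2.91% of the set. The libraries did not overlap for 36 genes above TPC1 and 12 below it, against 29.5% and 21.2% of all genes. The median log2 fold change was 0.12, against 0.05 for all genes. In WB1, 9 (8.74%) were called higher and 2 (1.94%) lower, where 3.39% and 1.59% of all genes were. Libraries did not overlap for 34 above and 10 below, against 26.5% and 18.8%, and the median was 0.12, against 0.06. In TD5, 2 (1.94%) were called higher and 4 (3.88%) lower, where 1.12% and 1.48% of all genes were. Libraries did not overlap for 13 above and 16 below, against 11.9% and 14.6%, and the median was 0.02, against 0.00.

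The number of higher calls in WB1 moved with the processing and with single libraries. It was 13 with a pseudocount of 0.1 per 1000000 (12.6% of the set, where 5.5% of all genes were called higher) and 13 with voom on estimated reads (12.6%, against 5.62%). With median-of-ratios scaling it was 5 (4.85%, against 2.6%), after a correction of the libraries for GC content 4 (3.88%, against 2.45%) and after one for transcript length 6 (5.83%, against 2.51%). It was 4 without TPC1 replicate 3 (3.88%, against 2.8%) and 4 without WB1 replicate 2 (3.88%, against 3.4%). With a pseudocount of 4 it was 1, and the share of 0.971% then lay below the 1.33% of all genes. The lower calls in WB1 numbered 2 or 3 under these settings (1.94% or 2.91%, where 0.786% to 2.33% of all genes were called lower). In D11, median-of-ratios scaling gave 2 higher calls (1.94%, against 2.12% of all genes) and 3 lower ones (2.91%, against 2.26%). The GC correction gave 3 higher (2.91%, against 1.63%) and 3 lower (2.91%, against 1.96%). In TD5, median-of-ratios scaling gave 2 higher (1.94%, against 1.12%) and 4 lower (3.88%, against 1.54%). There the GC correction gave 1 higher (0.971%, against 1.15%) and 4 lower (3.88%, against 1.47%). After the GC correction the medians of the set were 0.03, 0.02 and 0.00 in D11, WB1 and TD5. Without TPC1 replicate 3, TD5 had 1 higher call (0.971%, against 0.883%) and 2 lower ones (1.94%, against 1.25%).

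**Figure D2:**
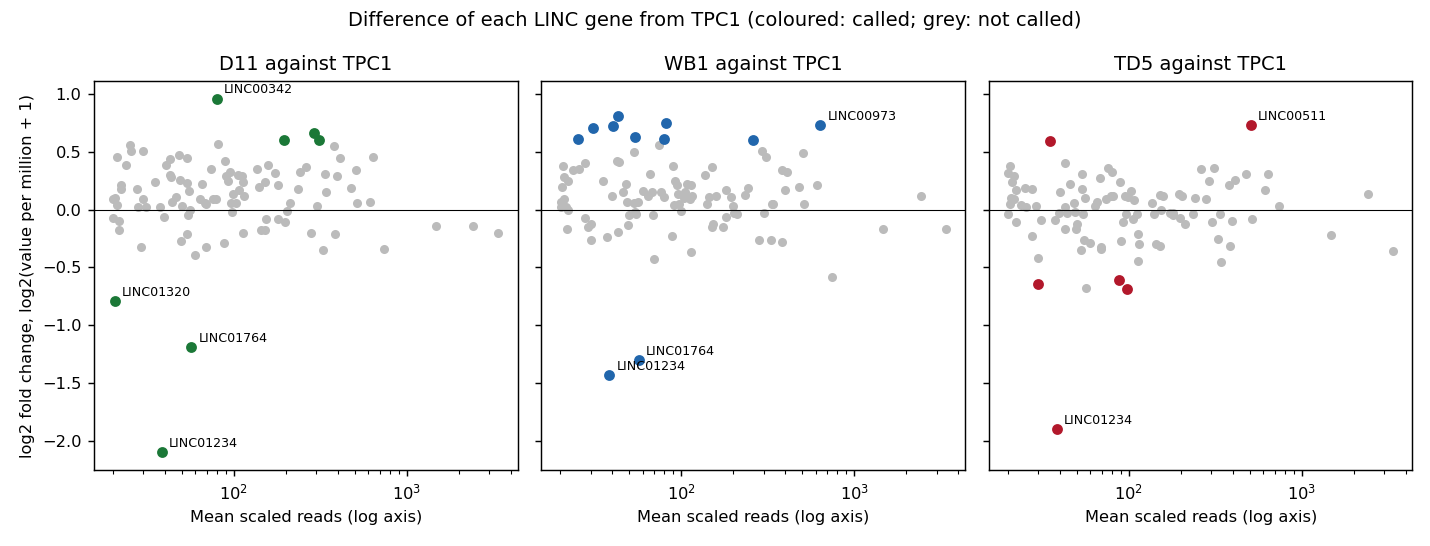
Log2 fold change of each of the 103 LINC genes against TPC1, on the log2(value per 1000000 + 1) scale, plotted over its mean scaled reads (log axis) for D11, WB1 and TD5. Coloured points are the 7, 11 and 6 called genes, grey points the others, and LINC01234 is the lowest point in every panel.

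LINC01234 was the only one of the 103 called the same way in all 3 clones, and it was lower in each. Of all genes 0.374% were called lower in all 3 clones and 0.2% higher, and 0 LINC genes were called higher in all 3. LINC01234 (ENSG00000249550) lies on chromosome 12, 113583886 to 113773726, minus strand, in GRCh38, and has been studied as a growth-promoting RNA in several carcinomas. It had 112, 90 and 111 scaled reads in TPC1, 16, 5 and 7 in D11 and 25, 21 and 33 in WB1, while TD5 had 16, 10 and 14. Every clone library lay far below every TPC1 library, and D11 and TD5 overlapped. In such bulk libraries, fewer cells with a transcript and less of it per cell cannot be told apart. The means were 104 ± 12.4 in TPC1, 26.3 ± 6.11 in WB1, 13.3 ± 3.06 in TD5 and 9.33 ± 5.86 in D11 (SD, n = 3). The mean of LINC01234 over all libraries, 38.3, passed the level limit through TPC1. The means of D11 and TD5 lay below that limit, and that of WB1 lay above it. Membership of LINC01234 thus rested on the line where it is high, so its place in the set is not independent of its fall in the clones. Relative to TPC1, D11 lay at −2.10 on the log2 scale (SE 0.15, adjusted p = 5.81e-08), WB1 at −1.43 (SE 0.15, adjusted p = 9.76e-06) and TD5 at −1.90 (SE 0.15, adjusted p = 4.61e-07). WB1 was higher than D11 by 0.67 (SE 0.15, adjusted p = 0.0104). That last call was lost without D11 replicate 2 (0.56), D11 replicate 3 (0.62) or WB1 replicate 3 (0.57), whereas the calls against TPC1 held without any single library. The ratio of the mean in TPC1 to that in D11 was 11.2 on the unlogged scale.

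Each line had 1 gene that was called in the same direction against all 3 other lines. In TPC1 this was LINC01234, in D11 LINC01320, in WB1 LINC00601 and in TD5 LINC02009. By library values alone more genes stood apart. All 3 libraries of D11 lay above every other library for 6 genes (5.83%, where 4.47% of all genes did), those of WB1 for 3 (2.91%, against 3.44%) and those of TD5 for 3 (2.91%, against 1.71%). They lay below every other library for 2 genes in D11 (1.94%, against 4.01%), for 0 in WB1 (where 2.03% of all genes did) and for 6 in TD5 (5.83%, against 3.07%). The promoters of 3 of them, and that of LINC00511, which was higher in TD5, are given from RefSeq on GRCh38.p14, as windows of 300 bases around the start, most of them before it, 5′ to 3′ on the strand of the gene. They are shown so that the starts of the genes that carried the largest or most line-specific differences can be compared. Capitals mark matches, on either strand, to TATAAA (the TATA box), GGGCGG (the GC box), TGANTCA (the AP-1 element) and CACGTG (the E-box), and the marked matches do not overlap. They lie at chr12:113773634-113773933, minus strand (LINC01234), chr10:126421830-126422129, minus strand (LINC00601), chr3:46423618-46423917, minus strand (LINC02009) and chr17:72640423-72640722, minus strand (LINC00511).
LINC01234: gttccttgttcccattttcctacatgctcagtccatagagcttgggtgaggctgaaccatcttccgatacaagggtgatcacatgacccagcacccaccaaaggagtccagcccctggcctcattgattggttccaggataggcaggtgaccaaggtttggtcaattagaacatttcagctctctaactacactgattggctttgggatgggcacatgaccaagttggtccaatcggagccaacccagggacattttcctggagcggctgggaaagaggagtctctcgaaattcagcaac
LINC00601: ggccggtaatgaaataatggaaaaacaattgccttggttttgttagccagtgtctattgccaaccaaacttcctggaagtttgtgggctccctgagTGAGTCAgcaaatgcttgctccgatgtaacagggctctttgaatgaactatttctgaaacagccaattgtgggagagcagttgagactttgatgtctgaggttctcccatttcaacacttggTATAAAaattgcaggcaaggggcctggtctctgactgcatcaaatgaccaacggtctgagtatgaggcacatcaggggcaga
LINC02009: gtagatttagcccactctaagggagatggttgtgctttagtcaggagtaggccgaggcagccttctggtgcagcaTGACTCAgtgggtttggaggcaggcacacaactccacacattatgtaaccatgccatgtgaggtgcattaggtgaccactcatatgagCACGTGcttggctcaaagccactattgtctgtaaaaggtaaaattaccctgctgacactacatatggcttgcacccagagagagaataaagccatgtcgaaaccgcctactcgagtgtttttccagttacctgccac
LINC00511: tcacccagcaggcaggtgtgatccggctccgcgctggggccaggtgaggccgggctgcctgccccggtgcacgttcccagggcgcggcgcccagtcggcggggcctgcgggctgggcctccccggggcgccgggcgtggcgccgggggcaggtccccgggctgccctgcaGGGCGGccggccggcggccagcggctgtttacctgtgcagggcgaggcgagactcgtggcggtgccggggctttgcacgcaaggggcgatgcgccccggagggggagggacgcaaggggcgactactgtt

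The LINC01234 window held none of the 4 motifs. LINC00601 had a TATA box and an AP-1 element, LINC02009 an AP-1 element and an E-box, and LINC00511 a GC box in a window of 78.0% GC with 35 CpG dinucleotides, against 4 in LINC01234, 3 in LINC00601 and 5 in LINC02009. RefSeq promoters were matched for 73 of the 103 genes. TGANTCA occurred in 19.2% of these windows, against 7.71% of all 35116 promoters, TATAAA in 16.4% against 11.5%, CACGTG in 8.22% against 7.26% and GGGCGG in 45.2% against 45.0%. A match to letters is a description of the window and not a binding site.

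LINC01320 (chromosome 2, 33706886 to 34738231, plus strand) set D11 apart. It had 3, 2 and 4 scaled reads in D11, against 25, 24 and 12 in TPC1, 25, 26 and 26 in WB1, and 43, 20 and 36 in TD5. D11 overlapped with none of the other lines and lay at the floor of 3 reads, which was 3.57 to 4.12 scaled reads in its libraries. In estimated reads, the 3 D11 libraries held 6, and those of TPC1, WB1 and TD5 held 54, 64 and 69. Per depth this made TPC1 8.29 times higher than D11 (95% interval 3.57 to 23.6), WB1 10.0 times (4.37 to 28.4) and TD5 12.8 times (5.61 to 36.2), intervals that cover counting error only. The fitted values were smaller, with a log2 fold change of −0.79 in D11 against TPC1 (SE 0.17, adjusted p = 0.00247), 0.99 in WB1 against D11 (SE 0.17, adjusted p = 0.000841) and 1.18 in TD5 against D11 (SE 0.17, adjusted p = 0.000133). With a pseudocount of 4 they were −0.27, 0.35 and 0.44, and none was called. The gene passed the level limit, at a mean of 20.5, only through lines other than D11. With only D11 and TPC1, or only D11 and TD5, in the fit it missed the filter for testing. Its membership and its test thus rested on lines where it is high.

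LINC00601 (chromosome 10, 126413869 to 126421879, minus strand) set WB1 apart. It had 49, 56 and 52 scaled reads in WB1, against 24, 27 and 22 in TPC1, 24, 20 and 31 in D11, and 12, 31 and 24 in TD5. The WB1 libraries lay above all others, and those of the other 3 lines overlapped. WB1 was higher by 0.71 than TPC1 (SE 0.16, adjusted p = 0.00333) and by 0.69 than D11 (SE 0.16, adjusted p = 0.00916), and TD5 lay at −0.80 to WB1 (SE 0.16, adjusted p = 0.0037). Without D11 replicate 2 the difference from D11 was 0.61 and was not called, and with the GC correction that from TPC1 was not called. The nearest tested coding gene, ADAM12, which encodes a membrane-bound metalloproteinase, starts 33402 bases away. It had 827, 795 and 854 scaled reads in WB1 and 390 to 534 in TPC1, and rose in WB1 by 0.80 (SE 0.12, adjusted p = 0.000208).

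LINC02009 (chromosome 3, 46416524 to 46423591, minus strand) set TD5 apart. It had 60, 67 and 51 scaled reads in TD5, against 93, 98 and 137 in TPC1, 109, 112 and 97 in D11, and 144, 103 and 96 in WB1. The TD5 libraries lay below all others, and the other 3 lines overlapped. TD5 lay at −0.69 to TPC1 (SE 0.15, adjusted p = 0.00583), −0.67 to D11 (SE 0.15, adjusted p = 0.0046) and −0.75 to WB1 (SE 0.15, adjusted p = 0.00422). Without TPC1 replicate 3 the first of these was −0.55 and was not called.

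Genes that rose in a clone did so by less than 2-fold on the fitted scale. LINC00342 (chromosome 2, 95807052 to 95835003) was the only one called higher in 2 clones. It had 59, 49 and 41 scaled reads in TPC1, 98, 124 and 124 in D11 and 92, 110 and 62 in WB1, while TD5 had 65, 61 and 75. All 9 clone libraries lay above TPC1. The log2 fold change was 0.96 in D11 (SE 0.16, adjusted p = 0.00041) and 0.61 in WB1 (SE 0.16, adjusted p = 0.00803), and TD5 lay at −0.63 to D11 (SE 0.16, adjusted p = 0.0085). WB1 was not called without its replicate 1 (0.58) or 2 (0.47) or TPC1 replicate 3 (0.52), with median-of-ratios scaling and with the GC and length corrections, and the difference between TD5 and D11 was lost without TD5 replicate 2 (−0.58) and with the corrections. The nearest tested coding gene, ANKRD36C, lies at 95836919 to 95991831 on the minus strand. LINC00342 is on that strand too, just past the end of ANKRD36C, and whether the transcripts are separate was not tested. ANKRD36C had 60 to 96 scaled reads in TPC1 and 128 to 172 in D11. It rose in D11 by 0.84 (SE 0.14, adjusted p = 0.000514) and in WB1 by 0.65 (SE 0.14, adjusted p = 0.00316). It belongs to a family of near-identical copies, so its reads are uncertain.

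LINC00511, an RNA on chromosome 17 reported to act with the Polycomb protein EZH2, had 384, 421 and 322 scaled reads in TPC1, 441, 513 and 487 in D11 and 534, 522 and 548 in WB1, while TD5 had 716, 612 and 584. All 9 clone libraries lay above TPC1, and TD5 lay above every other library. It was called in TD5 alone, at 0.73 (SE 0.10, adjusted p = 0.000145), and that call held without any single library. LINC00973 (chromosome 3, 98981058 to 98983096) had 470, 498 and 470 scaled reads in TPC1, 653, 716 and 639 in D11 and 817, 781 and 819 in WB1, while TD5 had 608, 547 and 646. Its clone libraries also lay above TPC1, and those of WB1 above all others. WB1 was higher by 0.73 (SE 0.08, adjusted p = 8.89e-06), a call that the GC correction took below 1.5-fold, at 0.51.

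Genes whose 9 clone libraries all lay above TPC1 numbered 5 (4.85%), against 5.17% of all genes, and those whose clone libraries all lay below numbered 6 (5.83%), against 6.51%. Above were LINC00342, LINC00511, LINC00969, LINC00973 and LINC01605. Below were LINC00094, LINC00334, LINC00958, LINC01234, LINC01278 and LINC01943, of which LINC00334, LINC01278 and LINC01943 were named after their values were seen. LINC01943 shares 405 exonic bases with CYTOR on the opposite strand, a noncoding RNA linked to cell division and movement. LINC01943 had 438, 431 and 460 scaled reads in TPC1, 374, 389 and 377 in D11 and 347, 367 and 371 in WB1, while TD5 had 377, 377 and 311. CYTOR had 919, 921 and 926 in TPC1 and 655 to 819 in the clones, so the libraries of both genes were separated from TPC1 in the same direction. Neither was called.

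Most of the other genes called in WB1 had low levels. LINC00621 rose by 0.81 (SE 0.19, adjusted p = 0.0053) from 26, 33 and 19 scaled reads in TPC1 to 52, 72 and 58. LINC00890, now SERTM2 and annotated as coding for a membrane protein, rose by 0.75 (SE 0.24, adjusted p = 0.0259) from 71, 59 and 40 to 118, 106 and 99. Its TD5 libraries had 62, 30 and 114 and overlapped with both lines. LINC01443 rose by 0.72 (SE 0.16, adjusted p = 0.00307) from 25, 30 and 27 to 50, 67 and 58. It lies on chromosome 18 around LINC01444, which is on the other strand and shares no exonic bases with it. LINC01444 rose by 0.60 (SE 0.16, adjusted p = 0.00995) from 199, 228 and 175 to 229, 363 and 365, and the lowest WB1 library lay just above the highest of TPC1. LINC01910 (0.63, SE 0.14, adjusted p = 0.00319) and LINC01355 (0.61, SE 0.18, adjusted p = 0.0157) were the remaining calls, and these and LINC01444 were named after their values were seen. With a pseudocount of 4 the changes of LINC01910 and LINC01355 were 0.34 and 0.25, and neither was called.

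Several of these WB1 calls were lost when a single library was left out. LINC00890 was not called without TPC1 replicate 3 (0.59, adjusted p = 0.132). Without WB1 replicate 1 or 2 its change stayed at 0.70 and 0.76, and it missed the p threshold alone (adjusted p = 0.084 and 0.063). LINC01444 was not called without TPC1 replicate 3 (0.51), WB1 replicate 2 (0.50) or WB1 replicate 3 (0.49). LINC01910 was not called without TPC1 replicate 2 (0.55), TPC1 replicate 3 (0.57) or WB1 replicate 2 (0.56), and LINC01355 was not called without TPC1 replicate 3 (0.45) or WB1 replicate 2 (0.55). The calls of LINC00621 and LINC01443 held without any single library. Median-of-ratios scaling ended those of LINC01444, LINC01910 and LINC01355, and the GC correction those of LINC00890, LINC01910 and LINC01355.

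LINC01764 was lower in 2 clones and was among the largest changes. It lies on chromosome 19, 15827005 to 15835853, minus strand, and shares 1083 exonic bases with UCA1 on the plus strand, a noncoding RNA first described in bladder carcinoma. LINC01764 had 97, 61 and 166 scaled reads in TPC1, 31, 33 and 35 in D11 and 39, 21 and 29 in WB1, while TD5 had 49, 76 and 45. All D11 and WB1 libraries lay below TPC1, while those of TD5 overlapped with it. Its log2 fold change was −1.19 in D11 (SE 0.23, adjusted p = 0.00129) and −1.30 in WB1 (SE 0.23, adjusted p = 0.000654). UCA1 (ENSG00000214049) had 350, 189 and 497 scaled reads in TPC1, 88, 147 and 122 in D11 and 118, 105 and 115 in WB1, while TD5 had 149, 232 and 146. It fell by 1.32 in D11 (SE 0.24, adjusted p = 0.000963), by 1.37 in WB1 (SE 0.24, adjusted p = 0.00073) and by 0.83 in TD5 (SE 0.24, adjusted p = 0.0338). A shorter UCA1 entry (ENSG00000273782), which lies inside the first, fell by 0.91 in D11 (adjusted p = 0.00297) and 0.84 in WB1 (adjusted p = 0.00505). In TD5 it lay at −0.60 and was not called (adjusted p = 0.059). In TPC1 both LINC01764 and UCA1 were highest in replicate 3 and lowest in replicate 2. Without TPC1 replicate 2 or without TD5 replicate 2, LINC01764 was also called lower in TD5, so that 2 genes were then lower in all 3 clones. Since the strand setting of the counting is not given, reads of LINC01764 cannot be told apart from those of UCA1 with certainty.

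**Figure D3:**
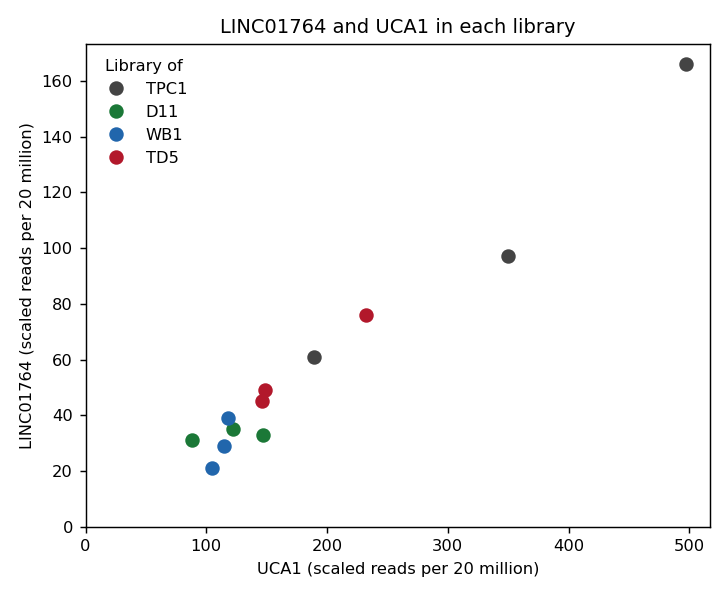
Scaled reads of LINC01764 (vertical axis) and UCA1 (horizontal axis), which share exonic bases on opposite strands, in each of the 12 libraries. The TPC1 libraries spread from 61 to 166 and from 189 to 497, and all D11 and WB1 libraries lie at or below 39 and 147.

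In TD5 the other called genes were near the call limit. LINC01021, known as PURPL and described as a target of p53 that limits p53 levels, had 10, 20 and 19 scaled reads in TD5, against 52, 31 and 28 in TPC1, 38, 46 and 35 in D11, and 28, 31 and 22 in WB1. It lay at −0.64 to TPC1 (SE 0.16, adjusted p = 0.0175) and −0.72 to D11 (SE 0.16, adjusted p = 0.00505). The former was not called without TPC1 replicate 1 (−0.46) or TD5 replicate 1 (−0.51), and the latter with the GC or length correction. LINC01547, which starts 84 bases from the divergent SLX9, fell by 0.61 (SE 0.15, adjusted p = 0.0123), from 106, 100 and 124 to 62, 85 and 51. It was not called without TPC1 replicate 3 (−0.53) or TD5 replicate 3 (−0.48), nor with the GC correction. LINC01589 rose by 0.59 (SE 0.12, adjusted p = 0.00385), from 28, 24 and 24 to 51, 47 and 46, and was not called without TPC1 replicate 2 (0.56), TPC1 replicate 3 (0.56) or TD5 replicate 1 (0.55), nor with the GC correction.

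Of the LINC genes 3 carried a microRNA hairpin on their own strand, and their host transcripts, not the microRNAs, were measured. LINC00472 carried MIR30A and MIR30C2, LINC00969 carried MIR570, and LINC02486, now MIR4453HG, carried MIR4453. The mature sequences from RefSeq are shown with the seed, bases 2 to 8, in capitals, since Dicer1 cuts them from precursors that such hosts give rise to. The 5′ arms of both miR-30 hairpins share 1 seed. On GRCh38.p14 they lie, in the order shown, at chr6:71403595-71403616, chr6:71377003-71377025, chr6:71403554-71403575, chr6:71376964-71376985, chr3:195699425-195699446, chr3:195699460-195699481, chr4:152536432-152536451, on the minus strand of chromosome 6 and the plus strand of the others.
hsa-miR-30a-5p: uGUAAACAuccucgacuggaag
hsa-miR-30c-5p: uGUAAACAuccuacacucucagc
hsa-miR-30a-3p: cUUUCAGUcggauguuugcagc
hsa-miR-30c-2-3p: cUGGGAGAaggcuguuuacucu
hsa-miR-570-5p: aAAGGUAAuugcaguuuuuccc
hsa-miR-570-3p: cGAAAACAgcaauuaccuuugc
hsa-miR-4453: gAGCUUGGucuguagcgguu

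LINC00472 (chromosome 6, 71187161 to 71420745, minus strand) had 189, 170 and 130 scaled reads in TPC1, 257, 243 and 262 in D11 and 160, 239 and 139 in WB1, while TD5 had 197, 155 and 189. All D11 libraries lay above the others, and D11 was higher than TPC1 by 0.60 (SE 0.16, adjusted p = 0.00933). This call lay at the 1.5-fold limit and was lost without TPC1 replicate 3 (0.46) or D11 replicate 3 (0.57), with median-of-ratios scaling and with the GC and length corrections. Its exons share 949 bases with OGFRL1 on the opposite strand, which lay at 0.35 in D11 (SE 0.11, adjusted p = 0.0262). LINC00969, now MUC20-OT1, had 242, 187 and 235 scaled reads in TPC1, 339, 385 and 355 in D11 and 346, 296 and 323 in WB1, while TD5 had 265, 266 and 263. It rose in D11 by 0.66 (SE 0.10, adjusted p = 0.000233), but not past 1.5-fold without TPC1 replicate 2 (0.55). It shares 2001 exonic bases on its own strand with the pseudogene SDHAP2, so its reads are uncertain. LINC02486 had 44, 33 and 40 in TPC1 and 79, 46 and 62 in D11, and was not called. LINC01605 was the remaining gene called higher in D11. It rose by 0.60 (SE 0.13, adjusted p = 0.00273) from 246, 279 and 185 to 376, 377 and 344, and was not called without TPC1 replicate 3 (0.45), D11 replicate 1 (0.58) or D11 replicate 2 (0.58), nor with median-of-ratios scaling.

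The clones were also compared with each other, since all are Dicer1 (+/-). The study reports a deletion of a different length in each, so the altered allele is not the same. In TD5 against D11, 1 LINC gene was called higher and 5 lower, where 1.67% and 2.32% of all genes were. In WB1 against D11, 3 were higher and 0 lower, where 1.97% and 0.88% of all genes were. In TD5 against WB1, 1 was higher and 2 lower, where 0.611% and 1.72% of all genes were. For WB1 against D11, limma gave 16 genes of the set (15.5%) with an unadjusted p under 0.05, where 19.3% of all genes had one. The lower calls there were 1 with a pseudocount of 0.1 (where 1.14% of all genes were called lower), 2 with voom on estimated reads (1.17%), 1 after the GC correction (0.861%) and 1 after the length correction (0.855%). After the GC correction TD5 against WB1 had 2 higher and 2 lower calls, where 0.593% and 1.23% of all genes were called. The number for WB1 against D11 was 1 without D11 replicate 2 and 5 without WB1 replicate 1 or 2, and that for TD5 against WB1 was 5 without TD5 replicate 3. Of all genes, WB1 against D11 then had, in that order, 1.73%, 1.8% and 1.87% higher and 0.776%, 0.914% and 0.922% lower. TD5 against WB1 had 0.657% higher and 2.68% lower.

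LINC00707 was the gene with the largest fall in TD5 against D11, by 0.94 (SE 0.19, adjusted p = 0.00295), and was named after its values were seen. It had 29, 25 and 31 scaled reads in TPC1, 39, 60 and 49 in D11 and 47, 15 and 17 in WB1, while TD5 had 18, 16 and 14. Replicate 1 of WB1 stood apart from the other two. LINC01226 was higher in TD5 than in WB1 by 0.61 (SE 0.15, adjusted p = 0.0167). It had 827, 941 and 782 scaled reads in TPC1, 584, 757 and 659 in D11 and 426, 677 and 612 in WB1, while TD5 had 939, 1020 and 676, so the highest WB1 value lay just above the lowest TD5 value. It was not called without WB1 replicate 1 (0.42), TD5 replicate 1 (0.55) or TD5 replicate 2 (0.49). Its exons share 158 bases with TINAGL1 on the same strand, which had 1918, 2993 and 2655 in WB1 and 3837, 4509 and 3217 in TD5 and was also called, at 0.62 (adjusted p = 0.0099).

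The nearest tested coding gene was called in the same direction as the LINC gene for 1 of 7 called genes in D11, 2 of 11 in WB1 and 0 of 6 in TD5 against TPC1. The genes were LINC00342 and LINC00601, and 0 had a neighbour called in the opposite direction. Between clones it was so for 1 of 6 in TD5 against D11 (LINC00342), 1 of 3 in WB1 against D11 (LINC00601) and 2 of 3 in TD5 against WB1 (LINC01226 and LINC00601). These are too few genes to be read against the shares of all genes called, given above for each comparison. In TD5 against D11 the neighbour of 2 LINC genes was called in the opposite direction. SFMBT2, whose start lies 631939 bases from that of LINC00707, was higher by 1.96 (adjusted p = 2.46e-08), and CDH6, at 3975972 bases from LINC01021, was higher by 0.87 (adjusted p = 0.00614). A coding gene that starts within 1000 bases on the other strand was found for 9 LINC genes. Of these 0 were called in D11 or WB1 and 1 was lower in TD5, too few to be read against the shares of all genes. Their medians were 0.29, 0.05 and −0.08, against 0.12, 0.12 and 0.02 for the set and 0.05, 0.06 and 0.00 for all genes. LINC01578, now CHASERR, whose transcript lies before CHD2 and is known to hold CHD2 down, had 323, 378 and 313 scaled reads in TPC1, 437, 480 and 489 in D11 and 416, 465 and 410 in WB1, while TD5 had 426, 373 and 427. It was not called in any clone, since its 1.37-fold higher level in D11 (limma adjusted p = 0.00213) and 1.26-fold higher level in WB1 (adjusted p = 0.013) lay under the 1.5-fold limit and TD5 missed the p threshold as well (1.20-fold, adjusted p = 0.0762). CHD2 itself had 1744 to 2156 in TPC1, 2139 to 2443 in D11, 2156 to 2428 in WB1 and 1652 to 1944 in TD5. It lay at 0.30 in D11 (SE 0.09, adjusted p = 0.0159), 0.31 in WB1 (SE 0.09, adjusted p = 0.0143) and −0.02 in TD5 (SE 0.09, adjusted p = 0.894), and was called in no clone. The pair share 121 exonic bases on the same strand.

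LINC00116, now MTLN, encodes a mitochondrial micropeptide, and small proteins have also been assigned to LINC00467 and LINC00094, these 3 being the members of the set on a list of 11 such genes, 4 of which were in the table. In no clone was any of the 3 called against TPC1. LINC00116 had 190, 184 and 235 scaled reads in TPC1, 195, 185 and 179 in D11 and 194, 195 and 233 in WB1, while TD5 had 144, 236 and 206. LINC00467 had 362, 325 and 366 in TPC1, 361, 416 and 395 in D11 and 440, 360 and 305 in WB1, while TD5 had 237, 263 and 256, so TD5 lay below every other library. TD5 lay at −0.59 to D11 (SE 0.11, adjusted p = 0.00133), which fell short of 1.5-fold without D11 replicate 2 (−0.55), D11 replicate 3 (−0.58) or TD5 replicate 1 (−0.55), and under all 3 changes of scaling.

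Of 29 LINC genes often studied in tumours 25 were in the table and 16 were in the set. LINC01234 was the single one called in D11 and in WB1, and LINC01234 and LINC00511 those called in TD5. The medians of the 16 were 0.07, 0.08 and −0.11 in D11, WB1 and TD5, against 0.05, 0.06 and 0.00 for all genes. Of all genes 2.89%, 3.39% and 1.12% were called higher there and 1.95%, 1.59% and 1.48% lower. Long noncoding RNAs with other kinds of name were taken from a list of 46, of which 44 were in the table and 28 were tested, as 29 rows because UCA1 has 2. Among the rows 2 were higher and 2 lower in D11. In WB1 the calls were 1 and 2, in TD5 1 and 1. The lower calls were the UCA1 rows, which lie at 1 locus. The medians of the rows were 0.37, 0.25 and −0.01 in D11, WB1 and TD5, against 0.05, 0.06 and 0.00 for all genes. KCNQ1OT1 (0.60, SE 0.13, adjusted p = 0.00318) and PSMA3-AS1 (0.66, SE 0.12, adjusted p = 0.00101) rose in D11, and LUCAT1 rose in WB1 (0.96, SE 0.20, adjusted p = 0.00199) and TD5 (0.86, SE 0.20, adjusted p = 0.00804).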

How the data were processed

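RNA of 4 cell lines, TPC1 and the Dicer1 (+/-) clones D11, WB1 and TD5, was analysed with 3 libraries each, grouped by the sample labels. The authors prepared stranded mRNA libraries, aligned paired reads with STAR 2.5.3a to GRCh38 and counted them per gene with HTSeq 0.9.1, per the labels' processing notes, and scaled libraries to a total of 20000000. What was deposited is therefore a score and not raw counts. They are whole numbers, rounded up, and sum to 20009833 to 20014191 per library. Depth was estimated from the gaps between these whole numbers.

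Values per 1000000 plus a pseudocount of 1 were log2-transformed, and the 16027 genes that reached 1 per 1000000 in 3 or more libraries were fitted with limma 3.58.1 (R 4.3.3), with a trend and 1 mean per line, since edgeR, named by the authors, needs counts. A call required a 1.5-fold change and an adjusted p (Benjamini-Hochberg over all genes tested) under 0.05. The script was tested on simulated data. Members and lists were chosen with earlier results of these data known, and nothing is supported by that choice. The naming rule took the 10 highest members, the 5 largest non-overlapping calls per clone and direction, members called alike in 3 clones, members setting a line apart, LINC01234, the small protein members and the 3 genes on either side of the level limit. Any other gene was chosen for naming with its values known.

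Genes were matched by ID to GENCODE release 44 and sequences by name to RefSeq. Replicate numbers were checked by the correlation of deviations from line means. In TD5 and D11 the same-numbered pairs gave 0.107, 0.172 and 0.348, all over 0.1, although no source states a pairing. Differently numbered pairs reached similar values, such as 0.203 for TD5 replicate 2 with D11 replicate 1. WB1 replicate 3 with D11 replicate 1 gave 0.316, so the values do not establish a pairing. The reported fit had no replicate block, and the block was an alternative. Alternatives covered the pseudocount, filter, scaling, lines in the fit, voom on estimated reads, a replicate block, thresholds and leaving out each library. Those added after seeing the data were corrections for GC content and transcript length and the block with the GC correction. Scripts ran in Python 3.11.15 (pandas 2.3.3, numpy 2.4.6, matplotlib 3.10.9, scipy 1.17.1). One marker gene of the fixed lists is not reported here.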

Additional observations from a re-analysis of the deposited data

Results flagged for a closer look

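In 12 cases a test of the difference between clones, the moderated test of limma with an adjusted p under 0.05 and at least 1.5-fold, separated clones. These are all Dicer1 (+/-), with a deletion of a different length in each. In TD5 against D11 the log2 fold change was 1.18 for LINC01320, −0.59 for LINC00467, −0.67 for LINC02009, −0.63 for LINC00342, −0.94 for LINC00707 and −0.72 for LINC01021. In WB1 against D11 it was 0.67 for LINC01234, 0.69 for LINC00601 and 0.99 for LINC01320. In TD5 against WB1 it was 0.61 for LINC01226, −0.75 for LINC02009 and −0.80 for LINC00601. Of all genes, 1.67%, 1.97% and 0.611% were called higher in TD5 against D11, WB1 against D11 and TD5 against WB1. The shares called lower were 2.32%, 0.88% and 1.72%. The calls of LINC00467, LINC00342 and LINC01226 were lost when a single library was left out. So were those of LINC01234 and LINC00601 in WB1 against D11. Membership of LINC01320 rested on lines where it is high. With 3 libraries per line, no test for outlying libraries was run. What sets the clones apart was not tested.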

How the results depend on the processing

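Of the 36 calls of a LINC gene in a comparison between 2 lines, 5 held under every alternative that tested them, namely those of LINC01234 in D11, WB1 and TD5 and of LINC01764 in D11 and WB1. Over all calls and alternatives 741 of 878 values stayed past the thresholds, 137 did not and 0 changed sign. The numbers called in D11, WB1 and TD5 against TPC1, TD5 against D11, WB1 against D11 and TD5 against WB1 were 7, 11, 6, 6, 3 and 3. With no minimum change they were 24, 28, 12, 23, 7 and 16, and with a minimum of 2-fold 2, 2, 1, 1, 0 and 0. With a pseudocount of 4 per 1000000 they were 3, 3, 2, 0, 0 and 0, since it shrinks the changes of low genes. With one of 0.1, D11 had 11, WB1 against D11 5 and TD5 against WB1 6, and with voom on estimated reads 13, 6 and 6, while WB1 against TPC1 had 16 with either. A filter of 5 per 1000000 left 54 members tested, with 4, 4, 3, 3 and 0 calls in the first 5 comparisons. There 2.61%, 2.89% and 0.991% of all genes were called higher in D11, WB1 and TD5 against TPC1, and 1.47%, 1.25% and 1.17% lower. In TD5 and WB1 against D11, 1.38% and 1.4% were higher and 2.1% and 0.817% lower. LINC01234 was not among the members tested, so 0 genes were called alike in all 3 clones. Of the 54, 29 differed among the lines, where 47 of 103 did in the main fit. Without a filter 25 of 103 did. The GC correction, alone or with the replicate block, gave 7 calls in WB1 against TPC1, and alone it gave 2 genes lower in all 3 clones. The length correction gave 3 calls in TD5 against D11. With no minimum change 4 genes were called alike in all 3 clones. Median-of-ratios scaling gave summed levels of 21660 in TPC1, 21560 in WB1 and 21010 in TD5. Leaving out 1 library gave 5 to 9 calls in D11, 7 to 12 in WB1, 3 to 7 in TD5, 5 to 8 in TD5 against D11, 1 to 5 in WB1 against D11, 2 to 5 in TD5 against WB1, 1 to 2 genes lower in all 3 clones and 36 to 50 differing among the lines. The replicate block changed no number of calls between lines, 6 for TD5 against D11 included, and 42 genes differed among the 4 lines with it. The shares of all genes called moved with the settings too. In D11 and WB1 against TPC1, 2.89% and 3.39% of all genes were called higher in the main fit. With a pseudocount of 4 these were 0.955% and 1.33%, with one of 0.1 4.84% and 5.5%, and with voom 4.79% and 5.62%. For the changed minimum fold they were not computed, so the counts of the set by setting are a description. Causes were not tested. Genes at few reads are limited by depth, as for LINC01320, which had 6 estimated reads in D11.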
